A study of Mus musculus with 24 samples.

Results

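The members described here are 10 neuropeptide receptors of reward and feeding circuits in the mouse nucleus accumbens: Npy1r, Npy2r, Npy5r, Oxtr, Avpr1a, Ntsr1, Calcr, Mc4r, Cckbr and Hcrtr2. They were chosen by name, through the Ensembl identifiers that carry these symbols, and are 10 of the 37991 genes counted. RNA sequencing covered 24 libraries in 8 groups of 3, and every library held pooled mRNA from 4 mice, so that n counts libraries and not animals. In the floxed experiment the compared groups were Cre females, Cre males, GFP females and GFP males: all were stressed Dnmt3a2lox/2lox mice, in which loxP sites flank a segment of the DNA methyltransferase gene Dnmt3a, and they received an adeno-associated virus (AAV) carrying either Cre recombinase with GFP or GFP alone. In the wild-type experiment the compared groups were stressed females, stressed males, control females and control males of the C57BL/6J strain. The stress is named in the title as subchronic and variable, that is, with stressors that change. The sources used here give no age for the mice, no length for the stress, and no serotype or promoter for the virus. Since every floxed mouse was stressed, the Cre comparison holds only within stress. The tissue was taken as punches that the protocol places in both the nucleus accumbens and the dorsal striatum.

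Neuropeptide receptors are G protein-coupled receptors: a peptide released from a neuron binds them and they change the excitability, transmitter release or gene expression of the target cell over longer times than fast transmitters do. Npy1r and Npy5r mediate much of the feeding response to neuropeptide Y through inhibitory G proteins, and Npy2r often sits on nerve terminals, where it restrains release. Oxtr and Avpr1a bind oxytocin and vasopressin and are known for social behaviour, Ntsr1 binds neurotensin, Cckbr binds cholecystokinin, and Hcrtr2 binds the arousal peptides called orexins. Calcr binds calcitonin and, with a RAMP partner protein, the satiety hormone amylin, and Mc4r is the melanocortin receptor that limits food intake.

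Total counts per library were 28132563 to 59829070 in the floxed experiment and 7116123 to 12145551 in the wild-type experiment, of which the 10 receptors together took 2945 to 7360 and 697 to 1019 counts. Values below are CPM, counts relative to library size after scaling with TMM factors. Dnmt3a stood at 143, 137 and 138 CPM in Cre males, against 182, 164 and 171 CPM in GFP males, and at 155, 150 and 140 CPM in Cre females, against 162, 169 and 155 CPM in GFP females. It fell by 0.30 on the log2 scale in Cre males (SE 0.06, edgeR quasi-likelihood adjusted p = 0.0149) and did not pass in Cre females (log2 −0.12, adjusted p = 0.829). A gene-level count includes exons outside the deleted segment. Ppp1r1b, a defining gene of medium spiny neurons, was present in all libraries, with its lowest value of 409 CPM in Cre male library 2. That library also had the lowest sum of medium spiny neuron markers, 2922 CPM, against 5251 to 6920 CPM in the other floxed libraries.

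The 3 Cre male libraries stand apart in genes of excitatory cortical neurons. Slc17a7, a glutamate transporter of synaptic vesicles in cortical neurons, stood at 428, 408 and 168 CPM in Cre males, against 1.29, 2.76 and 15.3 CPM in GFP males. Of 11 cortical markers, 9 rose in Cre males, with a median log2 change of 3.84 over the list, and none was at 0 in any group. Their summed level was 342 to 663 CPM in Cre males, against 126 to 153 CPM in GFP males, and 127 to 183 CPM in Cre females, against 124 to 152 CPM in GFP females. Cre male library 2 also held 1847 CPM of the choroid plexus gene Ttr and 409 CPM of Ppp1r1b, against 0.952 to 15.3 CPM of Ttr and 827 to 887 CPM of Ppp1r1b in GFP males. In bulk tissue, fewer cells of a type and less RNA per cell cannot be told apart.

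Set per kilobase of annotated exon, the receptors kept a similar order in the 2 experiments. In floxed libraries the mean level was 7.72 CPM per kb for Npy2r, 5.38 for Npy1r, 5.23 for Calcr, 5.15 for Cckbr, 3.05 for Npy5r, 1.498 for Oxtr, 0.992 for Mc4r, 0.826 for Ntsr1, 0.687 for Hcrtr2 and 0.394 for Avpr1a (n = 12 libraries). In wild-type libraries Npy1r, Npy2r and Cckbr led with 5.62 ± 0.80, 5.48 ± 1.40 and 5.33 ± 0.64 CPM per kb (SD, n = 12), and these 3 neighbours differed by less than their spread. Below them came Calcr at 3.35 and Npy5r at 2.35 CPM per kb, and the lower places from Oxtr (1.64) to Avpr1a (0.503) had the order seen in floxed libraries. In floxed libraries Npy1r, Calcr and Cckbr were likewise within their spread of each other. In both experiments the steps from Mc4r to Ntsr1 and from Ntsr1 to Hcrtr2 were smaller than the spread of Ntsr1. The experiments differ in genotype, virus and depth together, so no change between them is read.

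**Figure D1:**
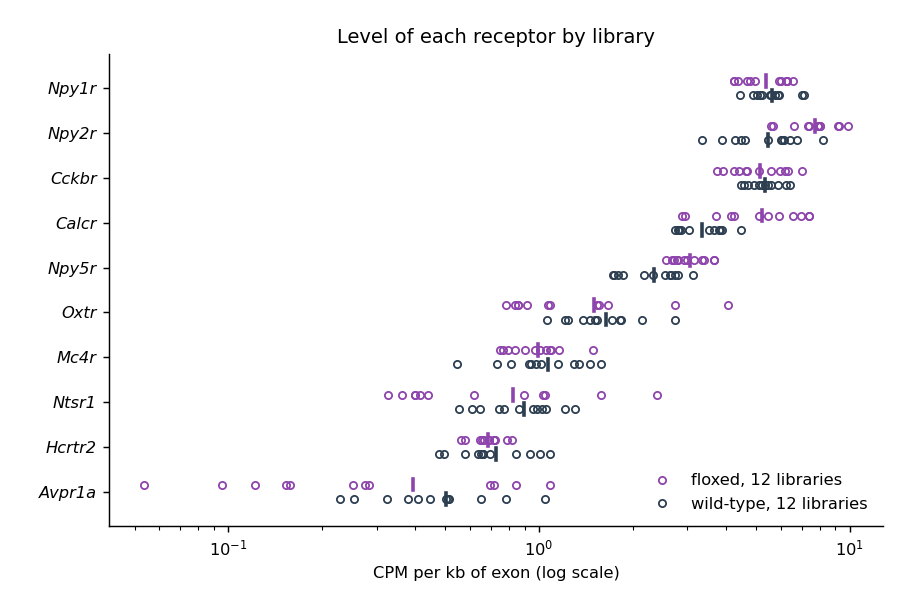
Levels of the 10 receptors in CPM per kb of exon (log axis), 1 point per library and a bar at the mean, in the floxed and the wild-type experiment. The neuropeptide Y receptors Npy2r and Npy1r, Calcr and Cckbr are at the top and Avpr1a at the bottom in both, and Oxtr, Ntsr1 and Avpr1a have the widest spread among floxed libraries.

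The receptors also differed in how steady they were across libraries. Over the 12 floxed libraries the standard deviation was 87.5% of the mean for Avpr1a, 76.1% for Ntsr1 and 65.7% for Oxtr, but 10.9% for Hcrtr2 and 12.4% for Npy5r. Avpr1a, the vasopressin V1a receptor, rested on as few as 6 counts in a floxed library and 5 in a wild-type library, so its values carry the largest counting error. Over wild-type libraries the standard deviation was 11.95% of the mean for Cckbr and 45.9% for Avpr1a.

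The Cre comparison asks what expression of Cre in floxed, stressed mice does to the receptors. In males 4 of 10 receptors passed an adjusted p below 0.05: Oxtr, Ntsr1 and Cckbr rose and Calcr fell. Of all 17597 genes tested in this comparison 4.96% passed, 3.68% higher and 1.28% lower. With 1 library left out this share ran from 0.52% (without GFP male library 2) to 7.29% (without Cre male library 3). With the replicate number added to the edgeR fit as a block, the 4 receptors did not pass (adjusted p 0.0551 to 0.0771). In that fit 2.93% of all genes tested passed. Groups did not overlap for 5 receptors, against 29.4% of all genes tested. In females no receptor passed.

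The promoters of the 4 receptors that passed are printed here because Dnmt3a adds methyl groups to cytosines, mainly where C is followed by G. They are the 250 bases before each annotated start in RefSeq, build GRCm38.p6, read 5′ to 3′ on the strand of the gene, with every CG in capitals. Calcr has a pair of annotated starts. For the start after chr6:3763624-3763873, the bases that follow were not found near the beginning of a Calcr transcript in GENCODE M21. For the other windows printed they were found in a transcript of the gene.
Oxtr, chr6:112489826-112490075, minus strand: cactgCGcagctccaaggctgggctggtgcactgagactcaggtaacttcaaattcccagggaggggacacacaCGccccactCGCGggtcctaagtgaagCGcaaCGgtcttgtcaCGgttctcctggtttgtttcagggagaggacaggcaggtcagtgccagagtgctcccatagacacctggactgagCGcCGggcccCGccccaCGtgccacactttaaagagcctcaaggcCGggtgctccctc
Ntsr1, chr2:180499726-180499975, plus strand: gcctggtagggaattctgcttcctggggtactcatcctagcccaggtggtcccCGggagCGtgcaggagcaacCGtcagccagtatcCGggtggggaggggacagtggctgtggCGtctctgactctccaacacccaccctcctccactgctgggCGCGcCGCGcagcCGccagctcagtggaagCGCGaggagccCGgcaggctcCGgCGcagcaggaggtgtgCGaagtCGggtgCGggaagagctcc
Cckbr, chr7:105425481-105425730, plus strand: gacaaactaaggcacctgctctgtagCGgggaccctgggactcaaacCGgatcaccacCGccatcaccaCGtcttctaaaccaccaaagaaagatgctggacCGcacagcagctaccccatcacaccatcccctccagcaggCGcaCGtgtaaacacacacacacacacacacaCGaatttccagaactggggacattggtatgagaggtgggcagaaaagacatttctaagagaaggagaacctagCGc
Calcr, chr6:3763624-3763873, minus strand: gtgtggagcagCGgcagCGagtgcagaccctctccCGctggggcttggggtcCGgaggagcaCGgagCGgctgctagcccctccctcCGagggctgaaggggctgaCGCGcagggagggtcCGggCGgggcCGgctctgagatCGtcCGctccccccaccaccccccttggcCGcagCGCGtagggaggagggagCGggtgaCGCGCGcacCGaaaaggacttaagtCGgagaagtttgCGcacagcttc
Calcr, chr6:3764714-3764963, minus strand: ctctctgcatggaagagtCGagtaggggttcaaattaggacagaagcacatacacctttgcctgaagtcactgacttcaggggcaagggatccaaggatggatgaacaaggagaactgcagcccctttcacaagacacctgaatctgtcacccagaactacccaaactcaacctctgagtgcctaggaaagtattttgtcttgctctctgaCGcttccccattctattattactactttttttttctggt
The motif CG, which reads the same on both strands, occurs 12 times before Oxtr, 18 times before Ntsr1, 9 times before Cckbr, and 24 and 2 times before the starts of Calcr. Of 32841 mouse promoters of this length (median 6), 33.5% hold at least 12, 21.7% at least 18, 40.3% at least 9, 12% at least 24 and 81.2% at least 2. Of the other receptors with a promoter here, Npy2r, Npy5r and Avpr1a hold 12, Npy1r 10 and Hcrtr2 4. Methylation was not measured in these files, so the counts describe sequence only.

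Oxtr, the oxytocin receptor, had the smallest adjusted p of the 10 in males. It stood at 13.2, 19.5 and 7.36 CPM in Cre males, against 3.74, 5.12 and 4.00 CPM in GFP males. All 3 Cre male libraries were above all 3 GFP male libraries, and library 3 was the lowest of the Cre males. The difference was 3.13-fold (log2 1.64, SE 0.34, edgeR quasi-likelihood test, Benjamini-Hochberg adjusted p = 0.0251). The call ended when Cre male library 1 or 2, or GFP male library 1, 2 or 3, was left out (adjusted p 0.0640 to 0.0994), with log2 differences of 1.26 to 1.93 over all such fits.

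Ntsr1, the neurotensin receptor, is also a known marker of deep-layer cortical neurons in the mouse. It stood at 6.19, 9.42 and 3.52 CPM in Cre males, against 1.56, 2.42 and 1.27 CPM in GFP males. The groups did not overlap, and the Cre male libraries kept the order seen for Oxtr, library 2 highest and library 3 lowest. The difference was 3.68-fold (log2 1.88, SE 0.41, edgeR adjusted p = 0.0299). The same 5 libraries each ended the call when left out (adjusted p 0.0691 to 0.116). With Cre male library 3 as the only Cre male library, the log2 difference was 1.01 for Ntsr1 and 0.78 for Oxtr. In that fit the spread comes from the other groups and 2 of 18252 genes passed, so its p-values say nothing about the receptors. That library also had the lowest Slc17a7 of the Cre males, and the part of cortical and choroid plexus RNA in either result was not tested. Of 10 listed striatal interneuron markers tested 4 rose in Cre males (Sst, Cck, Vip and Npy) and none fell. The median log2 difference was 0.49 over the list, against 0.00 over all genes tested. Cck is also an abundant cortical transcript and Npy is also made by cortical interneurons, so the list does not mark striatal cells alone. The summed level of the list was 395, 438 and 359 CPM in Cre males, against 279, 273 and 257 CPM in GFP males. It had the order of the Cre male libraries seen for Oxtr and Ntsr1. The part of these markers was not tested either.

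**Figure D2:**
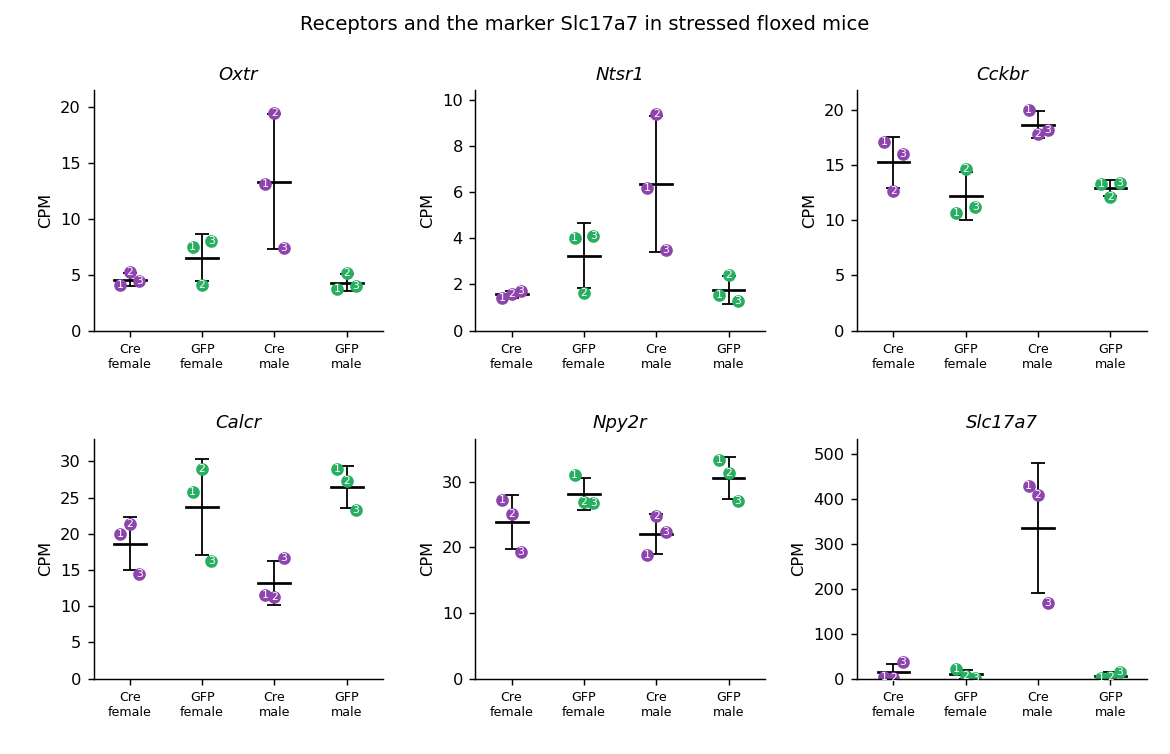
CPM of 5 receptors and of the cortical marker Slc17a7 in Cre and GFP libraries of each sex, 1 point per library, marked with its number, with the group mean ± SD (n = 3). Oxtr and Ntsr1 are higher in all 3 Cre male libraries than in all 3 GFP male libraries (Oxtr 7.36 to 19.5 against 3.74 to 5.12 CPM), whereas Calcr is lower (11.3 to 16.6 against 23.2 to 28.9 CPM).

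Cckbr, the brain form of the cholecystokinin receptor and abundant in cortex, differed less but more evenly. It stood at 20.03, 17.8 and 18.1 CPM in Cre males, against 13.3, 12.1 and 13.4 CPM in GFP males. No library crossed between the groups. The difference was 1.44-fold (log2 0.53, SE 0.13, edgeR adjusted p = 0.0411). With Cre male library 3 alone it was 0.49 on the log2 scale. Leaving out Cre female library 3, Cre male library 1 or 2, or any GFP male library ended the call (adjusted p 0.0552 to 0.143). The part of cortical RNA in the Cckbr values was not tested.

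Calcr, the calcitonin and amylin receptor, was the only one of the 10 that passed with lower values in Cre males. It stood at 11.6, 11.3 and 16.6 CPM in Cre males, against 28.9, 27.3 and 23.2 CPM in GFP males. The highest Cre male library was below the lowest GFP male library. The level in Cre males was 0.496 of that in GFP males (log2 −1.01, SE 0.23, edgeR adjusted p = 0.0368), and the log2 difference was −0.67 with Cre male library 3 alone. The call ended without Cre female library 1, GFP female library 1, Cre male library 1 or 2, or any GFP male library (adjusted p 0.0516 to 0.135). Without the filter on low counts the calls of Oxtr, Ntsr1 and Calcr also ended (adjusted p = 0.0516, 0.0549 and 0.0756). Beside the fall of Calcr, the summed level of 12 medium spiny neuron markers was 5391, 2922 and 5804 CPM in Cre males, against 5746, 6071 and 6181 CPM in GFP males: all 12 had lower values in Cre males, none passed, and none was at 0. Library 1 of the Cre males held 11.6 CPM of Calcr at a marker sum of 5391 CPM, both below all GFP male libraries. Library 2 held 11.3 CPM of Calcr at a sum of 2922 CPM. Library 3 held 16.6 CPM at a sum of 5804 CPM, which lies within the GFP male sums. Over the 12 floxed libraries r of Calcr was 0.48 with medium spiny neuron, −0.82 with striatal interneuron and −0.81 with cortical markers. The part of these markers in the result was not tested.

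Npy2r, the presynaptic neuropeptide Y receptor, was also lower in each Cre male library, at 18.8, 24.8 and 22.4 CPM, against 33.3, 31.3 and 27.1 CPM in GFP males. It did not pass (log2 −0.47, SE 0.14, edgeR adjusted p = 0.0702) but passed with DESeq2 (adjusted p = 0.0173) and without Cre female library 3 (adjusted p = 0.0413). Of all genes tested in Cre males, 11.7% passed with DESeq2 and 4.08% without that library. Its feeding-related relatives differed less: Npy1r by a log2 of −0.17 and Npy5r by −0.18, with overlapping groups. The melanocortin receptor Mc4r (log2 −0.01) and the orexin receptor Hcrtr2 (log2 0.18) did not pass either. Avpr1a had a log2 difference of 1.67 with an SE of 1.03. It stood at 0.422, 2.89 and 0.733 CPM in Cre males, against 0.408, 0.673 and 0.255 CPM in GFP males, and without Cre male library 2 the log2 difference was 0.39.

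**Figure D3:**
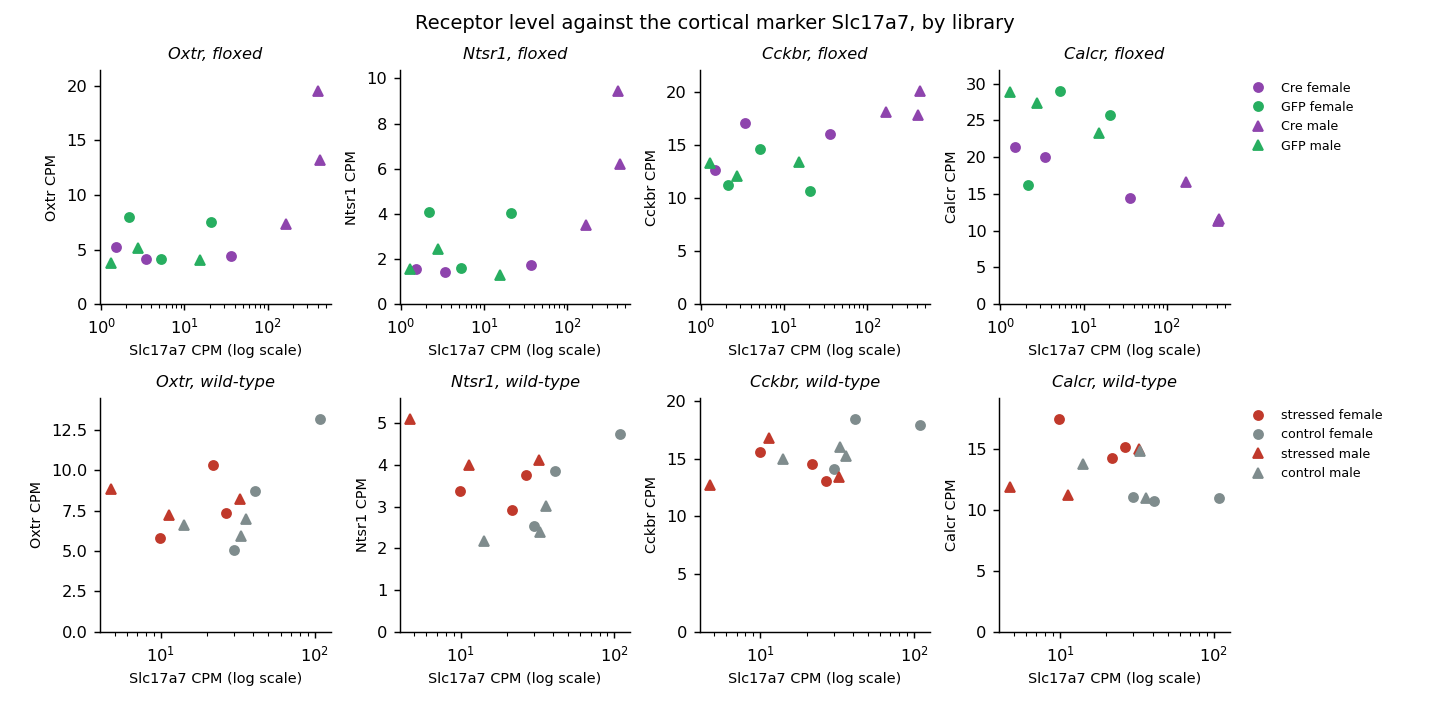
CPM of 4 receptors (y axis) against CPM of the cortical marker Slc17a7 (log x axis), 1 point per library, coloured by group, in the floxed (top) and wild-type (bottom) experiment. In the floxed experiment the 3 Cre male libraries lie apart at 168 to 428 CPM of Slc17a7, with Oxtr, Ntsr1 and Cckbr higher and Calcr lower than in the GFP males. Oxtr and Ntsr1 of Cre male library 3 (7.36 and 3.52 CPM) lie within the range of the GFP females.

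In females no receptor passed, and 0% of all genes tested did (edgeR quasi-likelihood test with Benjamini-Hochberg adjustment). At an unadjusted p below 0.05 there were 3 receptors, against 5.96% of all genes tested, and neither DESeq2 nor limma-voom called any. Values were lower in Cre than in GFP females for 9 of the 10 receptors, with a median log2 difference of −0.31, against 0.00 over all genes tested. Groups did not overlap for Mc4r and Hcrtr2, both lower in Cre females, against 5.04% of all genes tested. Mc4r stood at 2.098, 2.53 and 2.22 CPM in Cre females, against 3.03, 2.95 and 4.18 CPM in GFP females (log2 −0.57, SE 0.19, edgeR adjusted p = 0.703).

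Ntsr1 stood at 1.42, 1.57 and 1.72 CPM in Cre females, against 4.03, 1.62 and 4.10 CPM in GFP females (log2 −1.05, SE 0.42, adjusted p = 0.797). The GFP female libraries were split, with library 2 inside the range of the Cre females and libraries 1 and 3 above it. Oxtr stood at 4.10, 5.20 and 4.39 CPM in Cre females, against 7.49, 4.10 and 7.99 CPM in GFP females (log2 −0.52, SE 0.34, adjusted p = 0.882), again lowest among the GFP females in library 2. Slc17a6, the glutamate transporter of subcortical neurons, stood at 1.21, 5.10 and 1.91 CPM in Cre females, against 9.93, 3.36 and 11.8 CPM in GFP females, where library 2 was again the lowest. In Cre males Slc17a6 stood at 4.93, 21.96 and 2.81 CPM, highest in the library where Oxtr and Ntsr1 were highest. The summed striatal interneuron markers stood at 280, 295 and 317 CPM in Cre females, against 330, 286 and 364 CPM in GFP females, with library 2 again the lowest of the GFP females. The part of Slc17a6 and of these markers in the results was not tested.

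Cckbr was the only receptor with a higher value in Cre females, at 17.1, 12.6 and 16.02 CPM, against 10.7, 14.6 and 11.2 CPM in GFP females (log2 0.33, SE 0.13, adjusted p = 0.796). Calcr stood at 20.02, 21.3 and 14.5 CPM in Cre females, against 25.8, 28.9 and 16.2 CPM in GFP females (log2 −0.35, SE 0.23, adjusted p = 0.882), with overlapping groups. Log2 differences of the other receptors in females were −0.10 for Npy5r, −0.17 for Hcrtr2, −0.24 for Npy2r, −0.27 for Npy1r and −0.44 for Avpr1a.

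The Cre differences had the same sign in females and males for 6 receptors and opposite signs for 4. The test of the difference between sexes, females minus males, gave a log2 of −2.93 for Ntsr1 (SE 0.59, edgeR adjusted p = 0.0829) and −2.17 for Oxtr (SE 0.48, adjusted p = 0.0950), and none of the 10 passed, against 0.0114% of all genes tested. Both passed with DESeq2 (adjusted p = 0.000236 for Ntsr1 and 0.000634 for Oxtr), where 3.45% of all genes tested did. Both also passed with edgeR without Cre male library 3 (0.0114 and 0.00792), where 2.8% of all genes tested did. Without GFP female library 2 both passed too (0.0438 and 0.0447), where 0.806% of all genes tested did. For Calcr the difference between sexes was 0.66 (adjusted p = 0.323), so its fall in males is not shown to differ from the females' value. Averaged over the sexes, Cckbr rose by a log2 of 0.43 (SE 0.09, edgeR adjusted p = 0.0464), against 1.42% of all genes tested that passed. That call held in the fits without Cre female library 2 or GFP female library 2 and ended without any of the other 10 libraries (adjusted p 0.0567 to 0.147). The averages for Calcr (log2 −0.68, adjusted p = 0.0790) and Npy2r (log2 −0.36, adjusted p = 0.107) did not pass with edgeR.

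**Figure D4:**
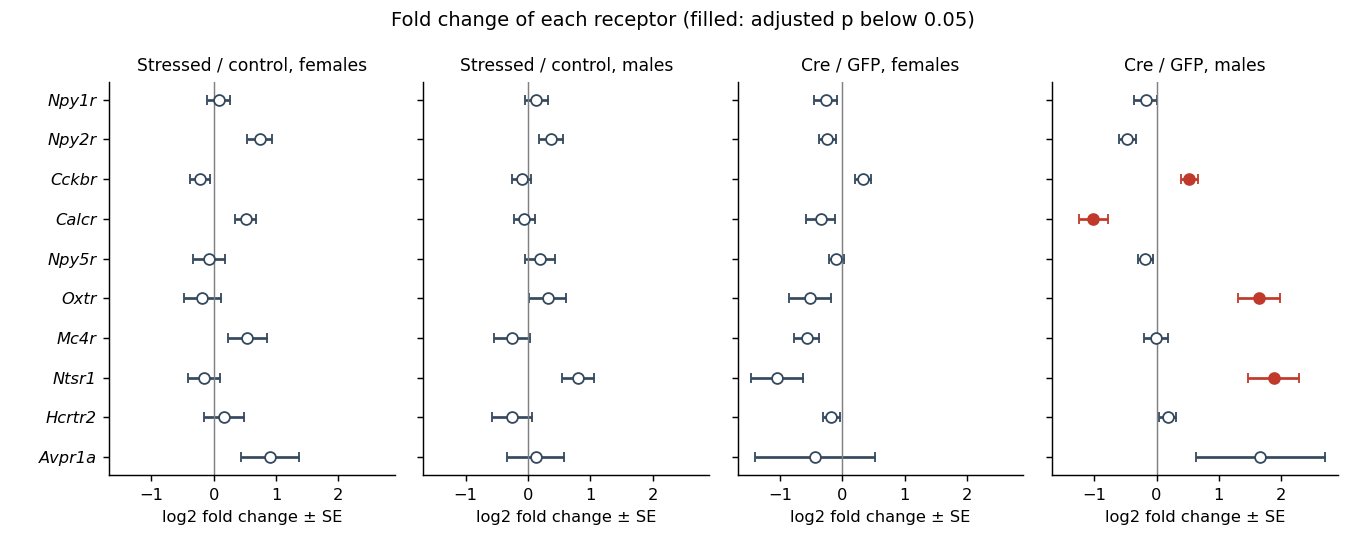
Log2 differences of the 10 receptors with their SE in the Cre and stress comparisons, for each sex. In Cre against GFP males Oxtr, Ntsr1 and Cckbr are right of 0 and Calcr left of 0 with adjusted p below 0.05, and no receptor passes in the other 3 comparisons.

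The stress comparison asks which receptors differ in wild-type mice after stress. No receptor passed in either sex, and 0% of all genes tested passed in females and 0.00656% in males with edgeR. DESeq2 and limma-voom called none of the 10 either. At an unadjusted p below 0.05 there were 2 receptors in females, Npy2r and Calcr, against 1.68% of all genes tested, and 1 in males, Ntsr1, against 2.81%. Without overlap there were 2 higher in females, against 2.72% of all genes tested, and 3 higher in males, Npy1r, Oxtr and Ntsr1, against 3.67%.

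Npy2r was the receptor with the smallest unadjusted p in females. It stood at 20.9, 21.7 and 27.8 CPM in stressed females, against 11.4, 15.1 and 15.6 CPM in control females. The lowest stressed library was above the highest control library, and the difference was 1.67-fold (log2 0.74, SE 0.20, unadjusted p = 0.00245), which ranked 11 among 15249 genes. The adjusted p was 1.00 with edgeR and 0.526 to 1.00 over the other settings. In males Npy2r stood at 18.4, 22.9 and 20.5 CPM in stressed mice, against 13.1, 20.4 and 14.5 CPM in controls (log2 0.37, SE 0.20, unadjusted p = 0.0835), where 1 control library lay inside the stressed range. Averaged over the sexes the log2 difference was 0.55 (SE 0.14, unadjusted p = 0.00156), which did not pass after adjustment, as 0.0131% of all genes tested did.

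Calcr stood at 17.5, 14.3 and 15.2 CPM in stressed females, against 10.7, 11.01 and 11.1 CPM in control females (log2 0.51, SE 0.17, unadjusted p = 0.00883). All stressed libraries were above the 3 control libraries. These 3 held 106, 107 and 109 counts and had a standard deviation of 0.168 CPM. Counting error at such counts is larger, so this small spread is not read as precision. In males Calcr stood at 11.9, 15.0 and 11.2 CPM in stressed mice, against 10.95, 13.8 and 14.8 CPM in controls (log2 −0.06, SE 0.17), with overlapping groups. The stress difference of Calcr between sexes was a log2 of 0.57 (unadjusted p = 0.0302), which did not pass after adjustment.

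Ntsr1 stood at 5.10, 4.12 and 4.00 CPM in stressed males, against 3.03, 2.17 and 2.38 CPM in control males (log2 0.80, SE 0.26, unadjusted p = 0.00790). These values rest on 37 to 52 counts per stressed library and 20 to 29 counts per control library. In females it stood at 3.39, 2.92 and 3.76 CPM in stressed mice, against 3.85, 4.73 and 2.54 CPM in controls (log2 −0.15, SE 0.26), and the difference between sexes was a log2 of −0.95 (unadjusted p = 0.0211), which did not pass after adjustment. Oxtr stood at 8.83, 8.25 and 7.24 CPM in stressed males, against 6.99, 6.62 and 5.96 CPM in control males, without overlap (log2 0.32, SE 0.30). In females its log2 difference was −0.19 (SE 0.29), with control female library 2 the highest of all at 13.2 CPM.

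The other receptors had no stress difference with an unadjusted p below 0.05. In females the log2 differences were 0.90 for Avpr1a (SE 0.46), 0.54 for Mc4r (SE 0.31), 0.16 for Hcrtr2, 0.08 for Npy1r, −0.08 for Npy5r and −0.22 for Cckbr. Between same-numbered libraries of stressed and control females, Npy1r, Mc4r and Hcrtr2 were higher and Cckbr was lower under stress in all 3 pairs. None of these passed with the replicate block (edgeR adjusted p = 0.998 for Npy1r, Hcrtr2 and Cckbr). The share of all genes tested with 1 direction in all 3 pairs was not counted, so these directions are not read as a result. In males the log2 differences were 0.13 for Npy1r, 0.19 for Npy5r, 0.13 for Avpr1a, −0.26 for Mc4r, −0.26 for Hcrtr2 and −0.10 for Cckbr. Stress differences had the same sign in both sexes for 4 receptors and opposite signs for 6. The members' median log2 difference was 0.12 in females and 0.13 in males, against −0.01 and 0.00 over all genes tested.

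**Figure D5:**
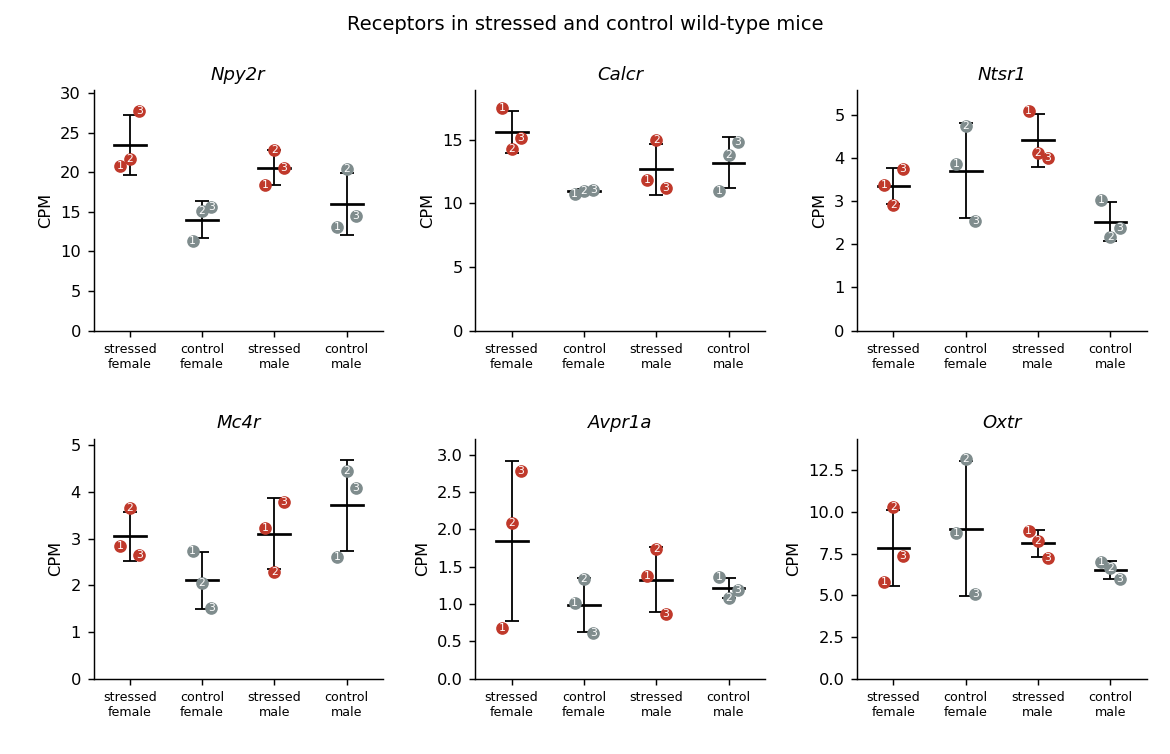
CPM of 6 receptors in stressed and control wild-type libraries of each sex, 1 point per library, marked with its number, with the group mean ± SD (n = 3). Npy2r and Calcr lie higher in all stressed female libraries than in control females, and Ntsr1 in all stressed male libraries than in control males (4.00 to 5.10 against 2.17 to 3.03 CPM).

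Neighbouring tissue also varied among the wild-type libraries. Of 10 cortical markers tested, 8 had lower values in stressed than in control females and 6 had an unadjusted p below 0.05. Their summed level was 205 to 221 CPM in stressed females, against 205 to 316 CPM in control females, and 203 to 220 CPM in stressed males, against 186 to 234 CPM in control males. Slc17a7 stood at 109 CPM in control female library 2, the library with the highest Oxtr and Ntsr1 among wild-type females. The summed choroid plexus markers stood at 173, 81.7 and 199 CPM in stressed males, against 46.6, 1116 and 2711 CPM in control males. Of 12 medium spiny neuron markers 11 had lower values under stress in each sex, and none passed. The part of these markers in the stress values was not tested.

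Between the sexes, female against male, no receptor passed in either experiment with edgeR, against 0.0682% of genes tested in floxed and 0.0393% in wild-type libraries. DESeq2 and limma-voom called none either. At an unadjusted p below 0.05 there was 1 receptor in floxed libraries, Npy5r, against 6.68% of all genes tested, and 0 in wild-type libraries, against 5.03%. The log2 differences ran from −0.57 to 0.58 in floxed and from −0.42 to 0.21 in wild-type libraries.

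Of 13 listed genes for the peptides that bind these receptors, 6 could be tested in floxed and 4 in wild-type libraries. Only their mRNA in the same tissue was counted, and peptide levels were not measured. In Cre males 2 rose, against 3.68% of all genes tested. These libraries also held high levels of cortical markers, and the part of cortical RNA in the ligand values was not tested. Cck, the cholecystokinin precursor and an abundant cortical transcript, averaged 33.7 ± 11.7 CPM in Cre males and 2.09 ± 0.69 CPM in GFP males (SD, n = 3 each; log2 3.99, edgeR adjusted p = 0.00813). Npy, made by striatal and cortical interneurons, averaged 44.5 ± 2.9 CPM in Cre males and 32.9 ± 1.6 CPM in GFP males (log2 0.44, adjusted p = 0.0226). Cckbr, which is also abundant in cortex, passed with higher values in Cre males too. Npy1r, Npy2r and Npy5r did not pass with edgeR. Whether ligand and receptor values are linked was not tested. The median log2 difference of the 6 ligands was 0.48, against 0.00 over all genes tested. In Cre females, stressed females and stressed males no ligand passed. Cck had the smallest unadjusted p in stressed females (log2 −0.86, unadjusted p = 0.0244), Npy in Cre females (log2 −0.21, unadjusted p = 0.0444) and Nts, the neurotensin precursor, in stressed males (log2 −0.38, unadjusted p = 0.171).

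Receptors and accessory proteins of the same ligand families gave 0 of 11 passing in Cre males, with a median log2 difference of −0.07, and 0 in each of the other 3 comparisons. Ramp3, 1 of the RAMP partners with which Calcr forms an amylin receptor, had a log2 difference of −0.57 in Cre males (adjusted p = 0.111) without overlap. Mrap2, the accessory protein of Mc4r, had lower values in Cre than in GFP mice of both sexes, −0.36 in females (adjusted p = 0.703) and −0.27 in males (adjusted p = 0.189). In stressed females its log2 difference was 0.39 (unadjusted p = 0.0458).

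Of 25 other neuropeptide receptors tested in Cre males 4 rose and none fell, with a median log2 difference of 0.04 (all genes tested: 3.68% higher, 1.28% lower). They were the bombesin-family receptor Nmbr (log2 2.63, adjusted p = 0.00591) and the somatostatin receptors Sstr3 (log2 2.07, adjusted p = 0.0240), Sstr1 (log2 1.71, adjusted p = 0.0251) and Sstr4 (log2 0.43, adjusted p = 0.0297). Nmbr averaged 5.55 ± 2.54 CPM in Cre males and 0.903 ± 0.181 CPM in GFP males (SD, n = 3 each). The part of cortical RNA in these Cre male values was not tested. In Cre females none passed, and the smallest unadjusted p belonged to Qrfpr (log2 −1.02, unadjusted p = 0.0275). In the stress comparisons none of 24 passed: Sstr3 had a log2 difference of −0.64 in females (unadjusted p = 0.0209) and Npbwr1 one of −1.004 in males (unadjusted p = 0.0249).

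Downstream of the receptors, 3 of 32 G protein, effector and regulator genes rose in Cre males and none fell, with a median log2 difference of 0.02. Of all genes tested 3.68% were higher and 1.28% lower, and the part of cortical RNA in the Cre male values was not tested. Adcy1, a calcium-stimulated adenylyl cyclase, averaged 382 ± 81 CPM in Cre males and 218 ± 9 CPM in GFP males (SD, n = 3 each; log2 0.81, adjusted p = 0.00991). The inhibitory G protein Gnaz (log2 0.30, adjusted p = 0.0277) and the receptor kinase Grk2 (log2 0.24, adjusted p = 0.0393) differed less. In Cre females and under stress none of the 32 passed. The smallest unadjusted p under stress was that of Gna14, a G protein of the Gq family, with higher values and no overlap in stressed females (log2 0.92, unadjusted p = 0.0260) and in stressed males (log2 1.03, unadjusted p = 0.00878). Rgs9, the striatal regulator that shortens G protein signals, was lower in both (log2 −0.29, unadjusted p = 0.0326, and log2 −0.33, unadjusted p = 0.0164). It is also on the list of 12 medium spiny neuron markers, of which 11 had lower values under stress in each sex.

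Likeness of pattern was measured by Pearson's r over 12 libraries within each experiment, for 14102 genes, taking the lower of the 2 values. The gene most like Oxtr was Olfm1 (r = 0.95 in wild-type and 0.97 in floxed libraries), that most like Ntsr1 was Ncald (0.91 and 0.86), and that most like Npy2r was Plxnc1 (0.86 and 0.93). Avpr1a was most like A730046J19Rik (0.89 and 0.84), and Hcrtr2 most like Vwc2l (0.81 and 0.81). Among the 3 genes most like Calcr was its chromosomal neighbour Peg10 (0.74 and 0.92). The gene most like Npy1r was Slc25a32 (0.79 and 0.78), that most like Npy5r was Vps29 (0.77 and 0.76), and that most like Mc4r was Slc29a4 (0.67 and 0.67). All points share their libraries and therefore depth, group and tissue make-up. In the floxed experiment the Cre males lie apart, so the r values describe these libraries only.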

How the data were processed

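The authors deposited 1 table of raw read counts by Ensembl gene ID, in whole numbers and without scaling. Per the submitters' processing notes it was made with TopHat2 2.0.9, Bowtie2 2.1.0 and HTSeq 0.6.0 on mouse builds NCBIM37 and mm9. The sources used here give neither settings nor strand, so reads of overlapping genes on opposite strands cannot be told apart. Symbols and exon lengths came from GENCODE M21 by Ensembl ID, and 5072 of 37991 IDs had none. No exon of the 10 receptors overlaps another gene there.

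The experiments were fitted apart in R 4.3.3 with edgeR 4.0.16: genes kept by filterByExpr (15249 wild-type, 17597 floxed), TMM scaling, and a robust quasi-likelihood fit with 1 mean per group (4 groups) and no replicate block. All 10 receptors passed the filter in both. P-values were Benjamini-Hochberg adjusted over all genes tested, and a gene passed at an adjusted p below 0.05. They measure the spread between libraries, each a pool of 4 mice. Alternatives were DESeq2 1.42.0, limma 3.58.1 (voom), DESeq2 size factors, no filter, only the 2 groups compared, a replicate block and each library left out. A fit with Cre male library 3 as the only Cre male library was added after seeing the data. The code was tested on simulated data.

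The members and gene lists were chosen with earlier results of these data known. Of each list, passing genes are named, up to 4 by smallest p, or up to 2 of smallest p where none passed. Up to 3 genes of like pattern are named per receptor, and a gene of this kind is not reported here. Same-numbered stressed and control females deviated together (r = 0.62, 0.34 and 0.56), so the numbers pair these libraries. For stressed and control males r was 0.38, 0.29 and 0.09, each above that with other-numbered control males. The stress SE and p-values given come from the fit without the block unless the block is named. The blocked fit changed no call of a receptor under stress in either sex. Galr3, Lhx8 and Slc18a3, which are on the lists, were not analysed here.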

Additional observations from a re-analysis of the deposited data

How the results depend on the processing

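In Cre against GFP males, 4 receptors passed; 0 passed with the replicate block, 1 (Cckbr) without the filter, and 0 to 4 when 1 library was left out. With Cre male library 3 alone 0 passed, in a fit where 2 of 18252 genes passed, so this 0 says nothing about the receptors. Averaged over the sexes, 1 passed with edgeR, 3 with DESeq2 (Cckbr, Calcr and Npy2r), 0 with the replicate block and 0 to 1 with a library left out. Of all genes tested for this average, 1.42% passed with edgeR and 4.2% with DESeq2. In the Cre difference between sexes 0 passed with edgeR, 2 with DESeq2 (Oxtr and Ntsr1) and 0 to 2 with a library left out. Of all genes tested for this difference, 0.0114% passed with edgeR and 3.45% with DESeq2. Same-numbered Cre and GFP males correlated at −0.10, 0.08 and 0.18 in their deviations. The highest values with other-numbered GFP males were 0.10, 0.06 and −0.001. For same-numbered Cre and GFP females r was 0.15, −0.17 and −0.46. These values do not settle whether the numbers pair the floxed libraries. The replicate block changed the count of all genes that passed in Cre males to 515, against 872 without it, and DESeq2 to 1811. Leaving out 1 library moved it to between 93 (without GFP male library 2) and 1303 (without Cre male library 3). The causes were not tested. No receptor passed under any setting in the stress, sex and Cre female comparisons.

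Directions of the receptors that passed held under every setting run. For values that did not pass, the sign turned under some settings. Mc4r in Cre males was 0.0459 with limma-voom and ran from −0.16 to 0.13 with a library left out. Over such fits, log2 differences ran from −1.61 to 0.11 for Avpr1a in Cre females (−0.0309 to 0.89 averaged over the sexes), from −0.10 to 0.35 for Avpr1a and −0.19 to 0.0485 for Calcr in stressed males, and in stressed females from −0.11 to 0.50 for Hcrtr2, −0.0857 to 0.30 for Npy1r, −0.22 to 0.27 for Npy5r, −0.36 to 0.0617 for Ntsr1 and −0.47 to 0.19 for Oxtr. The fits for stressed females and stressed males with a library left out did not keep the pairing of the numbers. Avpr1a rested on 5 to 20 counts in a wild-type library, which limits its precision.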

Other observations

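Peg10, an imprinted gene that lies near Calcr on mouse chromosome 6, also fell in Cre males. It stood at 282, 362 and 325 CPM in Cre males, against 539, 585 and 471 CPM in GFP males (log2 −0.72, SE 0.18, edgeR adjusted p = 0.0471), without overlap. In Cre females it stood at 485, 486 and 342 CPM, against 517, 569 and 367 CPM in GFP females (log2 −0.15, adjusted p = 0.926). Its values were low in library 3 of both female groups, as were those of Calcr. Among the neighbours looked up after their values were seen, Sgce (log2 −0.23), Ppp1r9a (log2 −0.33), Casd1 (log2 −0.17), Bet1 (log2 −0.25) and Vps50 (log2 −0.13) had lower values in Cre than in GFP males and did not pass, while Samd9l (log2 0.74), Hepacam2 (log2 0.31) and Gng11 (log2 0.18) had higher values, Col1a2 differed by a log2 of −0.0254, and none of these passed.

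Crh, the stress peptide corticotropin-releasing hormone, was on the list of septal, pallidal and hypothalamic markers. It had a log2 difference of 0.98 in stressed against control males (SE 0.22, unadjusted p = 0.000608) and of 0.54 in stressed against control females (SE 0.22, unadjusted p = 0.0276), without overlap in either sex. Neither passed after adjustment with edgeR (adjusted p = 1.00 in both).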
